A study of Homo sapiens with 6 samples.

Results

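The genes described here are 7 of the 61541 genes in a bulk RNA-seq count table, chosen by name: the plasminogen activators PLAT and PLAU, the urokinase receptor PLAUR, and the serpins SERPINE2, SERPINB2, SERPINB6 and SERPINB8. Levels were compared between MDA231-LN, short for MDA-MB-231-D3H2LN, and parental MDA-MB-231, with 3 libraries of each line. Both are human breast cancer cell lines, and both were grown in the same high-glucose medium with 10% serum and no treatment. MDA231-LN was obtained from a supplier and is a single derived line, so whatever separates it from its parent, its derivation included, is carried by the same comparison. Total RNA was sequenced as pairs of 150-base reads, and the labels leave unsaid whether each library had a culture of its own. The p-values therefore measure the spread between these libraries, which may be technical.

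Plasminogen is an inactive plasma protein that is cut to plasmin, a protease that dissolves fibrin and degrades matrix proteins. Tissue-type activator, made from PLAT, works best on fibrin, while urokinase, made from PLAU, is held at the cell surface by its receptor uPAR, made from PLAUR. Serpins trap such proteases by offering a loop that the enzyme cuts and then cannot release, and in breast tumors urokinase has long been studied as a marker of spread. A shift in RNA of these genes does not measure active protease, which also depends on plasminogen from outside the cells.

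In MDA231-LN, the activator PLAT fell and the inhibitors SERPINE2 and SERPINB2 rose, together with the receptor PLAUR. The wider list of secreted and organelle serpins, described below, moved in both directions. Levels are given as CPM, the share of a library's counted fragments that fell in a gene, scaled to library size. PLAT was 3.42-fold lower in MDA231-LN, SERPINE2 was 2.53-fold higher, PLAUR was 1.96-fold higher, and SERPINB2 had 197 counts in MDA231-LN against 2 in the parental line. SERPINB6 and SERPINB8, which act mainly inside cells, fell by less, to levels 1.33-fold and 1.24-fold lower in MDA231-LN. PLAU had too few countable bases to be measured. Of the 7 genes, 6 passed the filter on low counts, and at an adjusted p under 0.05 (edgeR quasi-likelihood test, Benjamini-Hochberg over all 14176 genes tested) 3 rose and 3 fell. Among all genes tested, 31.6% rose and 31.2% fell, so that 62.8% passed in either direction, and passing the test is in itself no distinction here. The 3 libraries of MDA231-LN did not overlap the 3 parental libraries for any of these 6 genes, 3 lying above and 3 below. The same held for 66.6% of all genes tested, 33.8% lying above and 32.8% below. SERPINB2 passed the filter only through MDA231-LN, and the count of 6 is given as a description.

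**Figure D1:**
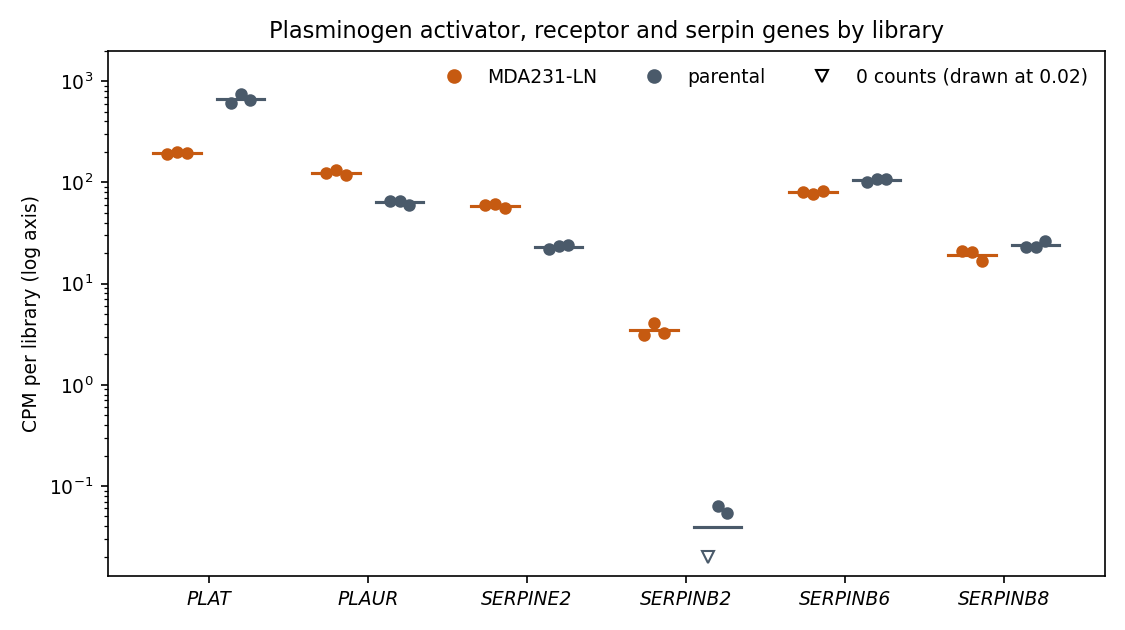
Level of each gene in every library, in CPM (log axis), with MDA231-LN left of parental; points are libraries, bars are means, and the open triangle is a library with 0 counts. PLAT lies between 189 and 202 CPM in MDA231-LN and between 613 and 754 CPM in parental cells, while SERPINB2 lies between 3.12 and 4.05 CPM in MDA231-LN and at or below 0.0634 CPM in parental cells.

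Libraries held 17661542 to 18882719 counted fragments in MDA231-LN and 16461578 to 19171017 in the parental line, and no library stood apart from its group. More genes had a count in MDA231-LN libraries, 19839 to 20024, than in parental ones, 17962 to 18196, though the deepest library was parental. Without a filter on low counts 4905 genes rose and 4456 fell, against 4482 and 4422 with it. The part of this in rises from near 0, such as that of SERPINB2, was not tested. Of 8 markers of the breast cancer line fixed for the check, including VIM, CD44 and EGFR, 7 exceeded 1 CPM in both lines, the exception being TWIST1, which was under 0.1 CPM. Their summed level was 6207 to 6468 CPM in MDA231-LN and 4712 to 4865 CPM in the parental line. Markers of other cells were low: 1 of 5 leukocyte markers exceeded 1 CPM in each line, with sums of 0.9765 to 2.408 CPM in MDA231-LN and 1.22 to 2.73 CPM in parental cells, and CD3E and LYZ near 0. Endothelial markers summed to 9.835 to 11.03 CPM in MDA231-LN and 9.634 to 14.93 CPM in parental cells (2 of 4 above 1 CPM, CDH5 near 0), and fibroblast markers to 14.9 to 19.5 CPM in MDA231-LN and 9.19 to 14.6 CPM in parental cells (1 of 4 above 1 CPM, DCN near 0). Luminal breast markers summed to 252.7 to 267.8 CPM in MDA231-LN, with 3 of 6 above 1 CPM, and to 199.5 to 211 CPM in parental cells, with 2 of 6, while PGR and TFF1 were near 0 in both lines. Single markers differed between the lines, in both directions. Counts in MDA231-LN against parental cells were 47 against 1 for the fibroblast marker LUM. They were 149 against 9 for luminal FOXA1 and 54 against 9 for luminal ESR1. For the endothelial markers they were 13 against 37 for VWF and 82 against 141 for KDR. Any part of these markers in the results below was not tested.

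Windows of sequence at listed starts of the genes that rose, with that of SERPINB8 as the neighbour of SERPINB2, are shown so that genes that rose can be set beside a neighbour that fell. They are RefSeq windows of 250 bases before to 50 bases after a listed start (GRCh38.p14, printed 5′ to 3′ on the strand of the gene), and SERPINE2 has 2 listed starts. All but the SERPINB8 window lie wholly inside the span of the gene as counted, which begins further upstream. Capitals mark matches on either strand to TGANTCA, bound by AP-1 factors, TATAAA, the core of a TATA box, GGGCGG, a GC box, or CACGTG, an E-box.
PLAUR, chr19:43670120-43670419, minus strand: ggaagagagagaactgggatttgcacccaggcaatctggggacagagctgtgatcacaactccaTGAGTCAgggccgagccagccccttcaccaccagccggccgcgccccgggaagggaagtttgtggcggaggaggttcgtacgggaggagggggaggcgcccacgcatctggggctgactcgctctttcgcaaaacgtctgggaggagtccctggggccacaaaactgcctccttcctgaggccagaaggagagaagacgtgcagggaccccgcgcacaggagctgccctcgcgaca
SERPINB2, chr18:63887455-63887754, plus strand: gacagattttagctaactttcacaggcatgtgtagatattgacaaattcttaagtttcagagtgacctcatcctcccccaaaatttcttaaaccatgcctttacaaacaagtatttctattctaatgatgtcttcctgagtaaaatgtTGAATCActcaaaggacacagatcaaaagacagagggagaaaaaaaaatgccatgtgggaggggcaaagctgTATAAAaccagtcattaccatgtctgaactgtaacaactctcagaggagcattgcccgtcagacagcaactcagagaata
SERPINB8, chr18:63969831-63970130, plus strand: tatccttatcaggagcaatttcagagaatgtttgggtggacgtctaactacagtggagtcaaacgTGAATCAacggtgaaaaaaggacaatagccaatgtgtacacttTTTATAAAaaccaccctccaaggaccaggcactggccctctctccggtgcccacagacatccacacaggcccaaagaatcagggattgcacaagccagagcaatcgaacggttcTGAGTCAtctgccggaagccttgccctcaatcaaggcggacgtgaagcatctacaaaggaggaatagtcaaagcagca
SERPINE2, chr2:224031429-224031728, minus strand: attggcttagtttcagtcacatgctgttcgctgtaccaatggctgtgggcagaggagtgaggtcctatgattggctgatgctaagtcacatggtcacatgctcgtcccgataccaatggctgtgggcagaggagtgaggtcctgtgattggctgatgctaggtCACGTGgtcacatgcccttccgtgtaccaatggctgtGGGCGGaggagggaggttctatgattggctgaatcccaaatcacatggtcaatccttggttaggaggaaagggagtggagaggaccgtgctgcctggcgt
SERPINE2, chr2:224038591-224038890, minus strand: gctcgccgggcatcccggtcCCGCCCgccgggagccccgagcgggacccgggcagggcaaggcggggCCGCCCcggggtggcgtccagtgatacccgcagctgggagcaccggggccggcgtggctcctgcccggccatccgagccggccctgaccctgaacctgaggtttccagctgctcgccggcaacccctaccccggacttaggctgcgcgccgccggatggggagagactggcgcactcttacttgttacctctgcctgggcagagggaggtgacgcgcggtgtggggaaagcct

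TGANTCA occurred in 7.71% of all 35116 promoter windows in the RefSeq table, TATAAA in 11.5%, GGGCGG in 45.0% and CACGTG in 7.26%. The PLAUR window held 1 TGANTCA, at position -186 from the start. The SERPINB2 window held 1 TGANTCA at -102 and 1 TATAAA at -30. The SERPINB8 window held 2 TGANTCA matches, at -185 and -28, and 2 TATAAA matches on opposite strands, at -142 and -140, that overlap each other. Neither SERPINE2 window held TGANTCA or TATAAA: the first held GGGCGG and CACGTG, and the second held 2 GGGCGG matches. TGANTCA was thus present in the windows of PLAUR and SERPINB2, which rose, and in that of SERPINB8, which fell. A match describes letters in a window, not binding of a factor.

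PLAT (ENSG00000104368, chromosome 8, 42174718 to 42207709, minus strand, GRCh38) encodes tissue-type plasminogen activator. Its levels were 189, 202 and 197 CPM in MDA231-LN, against 613, 754 and 647 CPM in the parental line. All 3 MDA231-LN libraries lay far below the lowest parental one, and the parental libraries spread more widely. The means were 196 ± 6.70 CPM in MDA231-LN and 671 ± 74.0 CPM in parental cells (SD, n = 3 each), a log2 fold change of -1.78 ± 0.06 (SE; adjusted p = 2.77e-18, edgeR). Of all genes tested, 7.53% fell by at least 2-fold. In bulk RNA, fewer cells with a transcript and less transcript per cell cannot be told apart, here and below.

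PLAU (ENSG00000122861, chromosome 10, 73909177 to 73917496, plus strand) encodes urokinase. It had 0, 3 and 4 counts in MDA231-LN and 5, 2 and 1 counts in the parental line, 7 and 8 in all, and was not tested. The gene shares 96.0% of its exonic bases with C10orf55 on the opposite strand, which had 0 counts in every library. The counting dropped read pairs that touch more than 1 gene and did not use strand, which left 118 of 2949 exonic bases of PLAU free. Its counts therefore give no level, and no statement about urokinase in either line can be made from them.

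PLAUR (ENSG00000011422, chromosome 19, 43646095 to 43670547, minus strand) encodes uPAR, which holds urokinase at the cell surface and also signals through integrins. It had 123, 133 and 118 CPM in MDA231-LN, against 65.1, 66.2 and 59.6 CPM in the parental line. Every MDA231-LN library was above every parental one. The means were 125 ± 7.65 CPM in MDA231-LN and 63.6 ± 3.52 CPM in parental cells (SD, n = 3 each), a log2 fold change of 0.97 ± 0.07 (SE; adjusted p = 1.84e-12, edgeR).

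SERPINE2 (ENSG00000135919, chromosome 2, 223975045 to 224039318, minus strand) encodes protease nexin, a secreted serpin that inhibits thrombin, urokinase, plasmin and tissue-type activator. Its levels were 59.2, 60.9 and 56.5 CPM in MDA231-LN, against 22.2, 23.4 and 24.1 CPM in the parental line. The libraries of a line lay close together and the lines did not overlap. The means were 58.8 ± 2.21 CPM in MDA231-LN and 23.2 ± 0.931 CPM in parental cells (SD, n = 3 each), a log2 fold change of 1.34 ± 0.08 (SE; adjusted p = 1.85e-13, edgeR), and 13.0% of all genes tested rose by at least 2-fold.

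SERPINB2 (ENSG00000197632, chromosome 18, 63871692 to 63903888, plus strand) encodes a clade B serpin that inhibits urokinase and is found mostly inside cells. It had 61, 73 and 63 counts in MDA231-LN, against 0, 1 and 1 counts in the parental line. The transcript was thus low in MDA231-LN and at the limit of detection in parental cells. The levels averaged 3.47 ± 0.503 CPM in MDA231-LN and 0.0390 ± 0.0341 CPM in parental cells (SD, n = 3 each), and 3 counts over a line correspond to 0.0526 CPM in MDA231-LN and 0.0590 CPM in the parental line. The ratio of the summed counts, scaled to library size, was 87.9, with an exact 95% interval of 24.0 to 731 that covers counting error only. The fitted log2 fold change was 6.23 ± 0.59 (SE; adjusted p = 8.93e-10, edgeR). The gene passed the filter only through MDA231-LN, so this test is given as a description. SERPINB2 shares 53.2% of its exonic bases with SERPINB10, which lies on the same strand and had 0 counts in all libraries, so its level rests on 1286 of 2746 exonic bases and on introns.

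SERPINB6 (ENSG00000124570, chromosome 6, 2948159 to 2972165, minus strand) encodes an intracellular inhibitor of cathepsin G. Its levels were 80.9, 77.3 and 81.8 CPM in MDA231-LN, against 102, 109 and 109 CPM in the parental line. The difference was small but larger than the spread within either line. The means were 80.0 ± 2.38 CPM in MDA231-LN and 107 ± 4.41 CPM in parental cells (SD, n = 3 each), a log2 fold change of -0.42 ± 0.06 (SE; adjusted p = 2.46e-06, edgeR).

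SERPINB8 (ENSG00000166401, chromosome 18, 63970029 to 64019779, plus strand) encodes a serpin that inhibits furin, a processing protease. It had 21.1, 20.3 and 16.7 CPM in MDA231-LN, against 22.9, 22.9 and 26.1 CPM in the parental line. The highest MDA231-LN library was below the lowest parental one, but only just. The means were 19.4 ± 2.36 CPM in MDA231-LN and 23.9 ± 1.85 CPM in parental cells (SD, n = 3 each), a log2 fold change of -0.31 ± 0.11 (SE; adjusted p = 0.0180, edgeR). The call did not hold without the third MDA231-LN library (-0.21, adjusted p = 0.130), without the third parental library (-0.25, adjusted p = 0.0740) or with upper-quartile scaling (-0.20, adjusted p = 0.130; edgeR in each case). Under that scaling the median over all genes tested was 0.13, against 0.02 with the scaling used throughout. Of its exonic bases, 13.7% lie inside other genes.

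Set against each other per kilobase of countable exon, in CPM per kilobase, the genes stood in a different order in each line. In MDA231-LN, PLAT at 29.7 ± 1.01 and PLAUR at 28.0 ± 1.72 overlapped, followed by SERPINE2 at 6.62 ± 0.249, SERPINB6 at 6.06 ± 0.180, SERPINB8 at 3.89 ± 0.475 and SERPINB2 at 2.70 ± 0.391 (level per kilobase, SD, n = 3). In parental cells, PLAT at 102 ± 11.2 stood well above PLAUR at 14.3 ± 0.789, followed by SERPINB6 at 8.08 ± 0.334, SERPINB8 at 4.81 ± 0.371, SERPINE2 at 2.61 ± 0.105 and SERPINB2 at 0.0303 ± 0.0265 (level per kilobase, SD, n = 3). PLAU, whose counts give no level, was left out of both orders. Apart from PLAT and PLAUR in MDA231-LN, the libraries of neighbours in each order given here did not overlap. SERPINE2 stood above SERPINB6 and SERPINB8 in MDA231-LN and below both in parental cells. Intronic reads enter these counts but not the length, so the scale is approximate.

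The ratio of activator to inhibitor RNA inside a library does not depend on how libraries are scaled. The log2 ratio of PLAT to SERPINE2 counts was 1.67, 1.73 and 1.80 in MDA231-LN, against 4.78, 5.01 and 4.75 in the parental line. The means were 1.74 ± 0.06 in MDA231-LN and 4.85 ± 0.14 in parental cells (log2, SD, n = 3 each), or 3.33 PLAT counts per SERPINE2 count in MDA231-LN against 28.8 in parental cells. The ratio was 8.63-fold lower in MDA231-LN, a log2 difference of -3.11, and all 3 MDA231-LN libraries were below all 3 parental ones. The exact two-sided permutation p was 0.1, the smallest that 3 against 3 libraries allow. PLAT and SERPINE2 each already separated the lines, in opposite directions. The separation of the ratio and its p therefore followed from them and are no further support.

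The rest of the pathway was described with 6 lists, read against the 31.6% of all genes tested that rose and the 31.2% that fell. Genes near 0 in 1 line entered the counts through the other line. Of 16 genes for plasminogen activation and its cell-surface partners, 9 were tested, of which 3 rose, 2 fell and 4 did not pass, with a median log2 fold change of 0.04 against 0.02 over all genes. The genes that rose were PLAUR, F12 and HGFAC. F12, the contact-system protease factor XII, had 3.72 ± 0.332 CPM in MDA231-LN and 1.78 ± 0.488 CPM in parental cells (SD, n = 3 each; log2 fold change 1.06 ± 0.29, SE; adjusted p = 0.00269, edgeR), with 77.0% of its exonic bases inside other genes. HGFAC, an activator of hepatocyte growth factor, had 51 counts in MDA231-LN and 2 in the parental line, a scaled ratio of 22.8 (exact 95% interval 5.98 to 193). Its fitted log2 fold change was 4.28 ± 0.88 (SE; adjusted p = 0.000146, edgeR), in a test that it entered only through MDA231-LN. With upper-quartile scaling 5 genes of this list rose.

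Annexin A2 and S100A10 form a surface complex that binds plasminogen and tissue-type activator; they and LRP1, LRP8, VLDLR, EGFR, MRC2 and the integrins below are named for their roles, after their values were seen. S100A10 fell, with 233 ± 17.2 CPM in MDA231-LN and 368 ± 48.3 CPM in parental cells (SD, n = 3 each; log2 fold change -0.66 ± 0.07, SE; adjusted p = 1.05e-08, edgeR). ANXA2 averaged 1754 CPM in MDA231-LN and 1707 CPM in parental cells (n = 3 each; log2 fold change 0.04 ± 0.05, SE), and did not pass the test (adjusted p = 0.519, edgeR). The partner genes therefore differed in behaviour, ANXA2 overlapping between lines and S100A10 not.

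Of 16 brakes on fibrinolysis and clot-side regulators, 9 were tested, of which 3 rose and 4 fell, with a median log2 fold change of -0.15. TGM2, a transglutaminase that cross-links fibrin and matrix, was 4.70-fold lower in MDA231-LN, with means of 483 CPM in MDA231-LN and 2271 CPM in parental cells (n = 3 each; log2 fold change -2.23 ± 0.05, SE; adjusted p = 2.44e-22, edgeR). THBD, thrombomodulin, was 2.84-fold lower, at 25.3 ± 1.05 CPM in MDA231-LN and 71.9 ± 1.96 CPM in parental cells (SD, n = 3 each; adjusted p = 4.83e-15, edgeR). SPINT1, a surface inhibitor of serine proteases, was 6.54-fold higher, at 10.1 ± 0.663 CPM in MDA231-LN and 1.55 ± 0.416 CPM in parental cells (SD, n = 3 each; adjusted p = 4.36e-11, edgeR). SERPINF2, the main inhibitor of plasmin, was near 1 CPM in MDA231-LN at 0.978 ± 0.308 CPM, against 2.16 ± 0.502 CPM in parental cells (SD, n = 3 each; log2 fold change -1.14 ± 0.39, SE; adjusted p = 0.0131, edgeR). Its call did not hold without the second MDA231-LN library (adjusted p = 0.0506), the third MDA231-LN library (adjusted p = 0.0555) or the third parental library (adjusted p = 0.0508; edgeR in each case).

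Of 19 uptake and signalling partners of uPAR and of serpin complexes, 15 were tested, of which 4 rose and 9 fell, with a median log2 fold change of -0.55 against 0.02 over all genes. LRP1, the receptor that takes up activator complexed with serpin, had 35.2 ± 3.29 CPM in MDA231-LN and 34.3 ± 2.07 CPM in parental cells (SD, n = 3 each; log2 fold change 0.04 ± 0.09, SE; adjusted p = 0.758, edgeR) and did not pass. SORL1, a sorting receptor related to it, was 2.35-fold higher, at 16.4 ± 1.69 CPM in MDA231-LN and 6.94 ± 1.35 CPM in parental cells (SD, n = 3 each; adjusted p = 9.00e-08, edgeR). EGFR, MRC2 and ITGB5 fell, with log2 fold changes of -0.95, -0.95 and -0.90 (MDA231-LN minus parental), and so did the integrin genes ITGA3, at -0.75, and ITGB1, at -0.17. Besides SORL1, the genes of this list that rose were LRP8, at 0.46, VLDLR, at 0.32, and the integrin gene ITGAV, at 0.30. Of the exonic bases, 50.1% of those of LRP8 and 82.9% of those of ITGAV lie inside other genes. VLDLR passed only narrowly (adjusted p = 0.0480, edgeR), and its libraries overlapped between the lines. The partners thus moved in both directions, the integrin genes included.

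**Figure D2:**
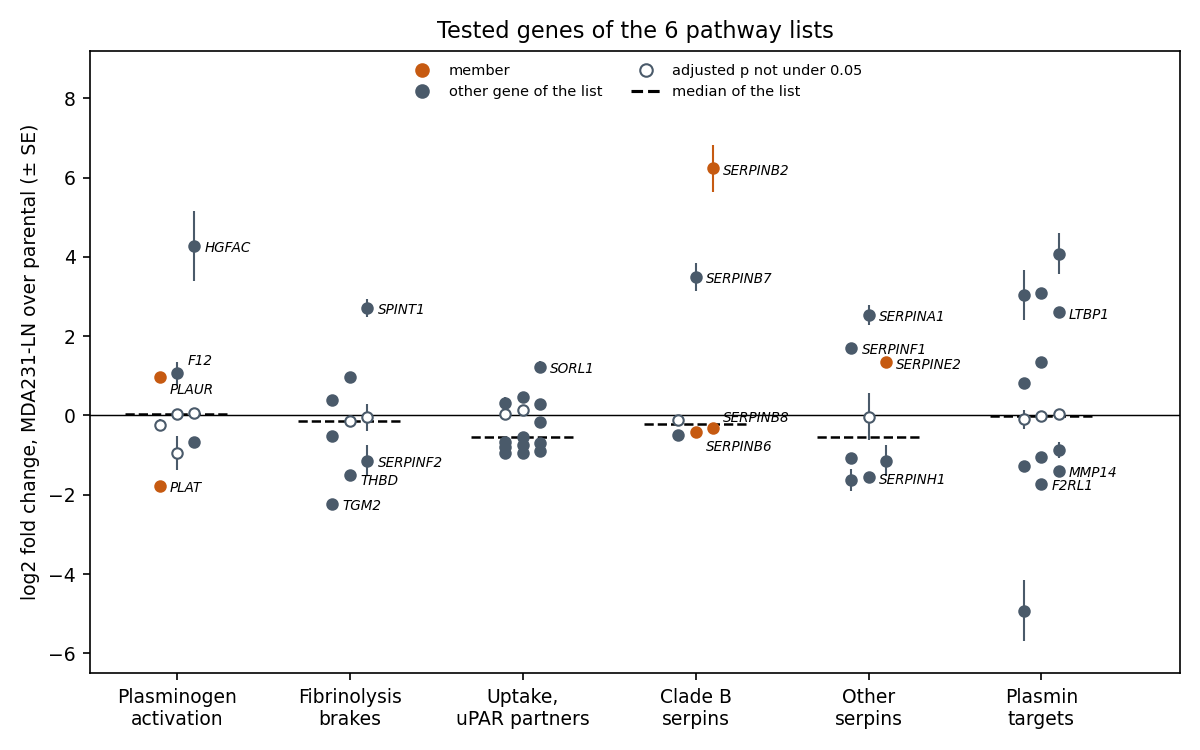
Log2 fold change, MDA231-LN over parental, of each tested gene in 6 lists of the plasminogen and serpin system, with SE; orange points are the activator, receptor and serpin genes of the opening, open points did not pass, and dashes are list medians. The median of the uptake and uPAR partner list lies at -0.55 and that of the clade B serpins at -0.21; the fitted fold changes of SERPINB2 and HGFAC rest on 2 parental counts each.

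Of 13 clade B serpins, the family of SERPINB2, SERPINB6 and SERPINB8, 6 were tested, of which 2 rose and 3 fell. SERPINB7 was the other to rise: 279 counts in MDA231-LN and 22 in parental cells gave 4.91 ± 0.653 CPM in MDA231-LN and 0.427 ± 0.215 CPM in parental cells (SD, n = 3 each), 11.2-fold higher in MDA231-LN (adjusted p = 4.76e-09, edgeR). The 10 clade B genes of chromosome 18 lie in a row, in which SERPINB7 starts at -118.8 kb and SERPINB8 at 98.3 kb from the start of SERPINB2. The others of that row were hardly detected: SERPINB5 had 8 counts in MDA231-LN and 0 in parental cells, SERPINB12 had 7 in MDA231-LN and 0 in parental cells, SERPINB11 had 1 in each line, and SERPINB3, SERPINB4, SERPINB10 and SERPINB13 had 0 in both lines. SERPINB3 lies wholly inside other genes and could not be counted. On chromosome 6, SERPINB1, an inhibitor of neutrophil elastase, fell to 56.7 ± 1.38 CPM in MDA231-LN, against 80.4 ± 4.40 CPM in parental cells (SD, n = 3 each; log2 fold change -0.50 ± 0.07, SE; adjusted p = 4.79e-07, edgeR). SERPINB9, an inhibitor of granzyme B, had 41.7 ± 2.40 CPM in MDA231-LN and 45.2 ± 2.65 CPM in parental cells (SD, n = 3 each; log2 fold change -0.12 ± 0.08, SE) and did not pass (adjusted p = 0.222, edgeR).

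**Figure D3:**
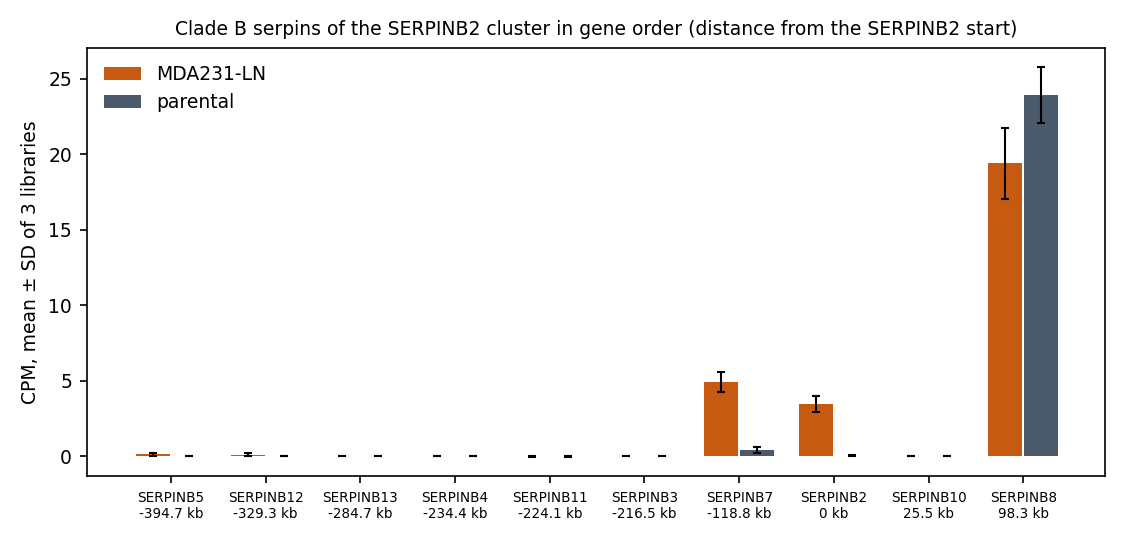
Mean CPM with SD over 3 libraries of each line for the 10 clade B serpin genes of chromosome 18, in their order along it and with the distance of each start from that of SERPINB2; MDA231-LN is left of parental. SERPINB7 averages 4.91 CPM in MDA231-LN and 0.427 CPM in parental cells, SERPINB2 averages 3.47 CPM in MDA231-LN and 0.0390 CPM in parental cells, and SERPINB8, at 19.4 CPM in MDA231-LN and 23.9 CPM in parental cells, is the highest of the 10 in both lines.

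Of 20 secreted and organelle serpins, 8 were tested, of which 3 rose and 4 fell, with a median log2 fold change of -0.55. Besides SERPINE2, SERPINF1, pigment epithelium-derived factor, was 3.25-fold higher, at 26.1 ± 0.704 CPM in MDA231-LN and 7.98 ± 1.61 CPM in parental cells (SD, n = 3 each; adjusted p = 1.62e-11, edgeR). SERPINA1, the inhibitor of neutrophil elastase in plasma, was 5.78-fold higher, at 6.62 ± 0.856 CPM in MDA231-LN and 1.14 ± 0.0837 CPM in parental cells (SD, n = 3 each; adjusted p = 2.78e-09, edgeR). SERPINH1, a collagen chaperone with no inhibitor activity, was 2.95-fold lower, at 93.2 ± 4.88 CPM in MDA231-LN and 275 ± 17.4 CPM in parental cells (SD, n = 3 each; adjusted p = 1.60e-17, edgeR). SERPINI1, named after its values were seen, was 3.09-fold lower, at 1.59 ± 0.479 CPM in MDA231-LN and 4.93 ± 0.235 CPM in parental cells (SD, n = 3 each; adjusted p = 1.19e-05, edgeR). Serpins that moved by at least 2-fold were thus split between the directions.

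Of 24 substrates and downstream proteases of plasmin, 15 were tested, of which 6 rose and 6 fell, with a median log2 fold change of -0.01. LTBP1, which holds latent TGF-beta in the matrix, was 6.04-fold higher, at 195 ± 4.40 CPM in MDA231-LN and 32.2 ± 2.13 CPM in parental cells (SD, n = 3 each; adjusted p = 2.05e-21, edgeR). F2RL1, a receptor switched on by protease cleavage, was 3.31-fold lower, at 138 ± 9.85 CPM in MDA231-LN and 458 ± 23.6 CPM in parental cells (SD, n = 3 each; adjusted p = 1.30e-18, edgeR). MMP14, a membrane-bound matrix protease, was 2.64-fold lower, at 452 ± 18.9 CPM in MDA231-LN and 1191 ± 81.8 CPM in parental cells (SD, n = 3 each; adjusted p = 1.83e-17, edgeR). Of the genes named so far from this list, LTBP1 thus rose, while F2RL1 and MMP14 fell. Other matrix proteases of the list, named after their values were seen, went both ways. MMP13 and MMP3 rose, with log2 fold changes of 4.08 and 3.04, and MMP2 fell, at -4.92, each with few counts in the lower line. Plasminogen itself, PLG, averaged 0 CPM in MDA231-LN and 0.0203 CPM in parental cells and was not tested.

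Tested genes within 1 Mb of each gene, that gene left out, were described as its surroundings. Over all genes tested, 31.6% rose and 31.2% fell. Around PLAT, 2 of 18 neighbours rose and 6 fell, with a median log2 fold change of -0.04, against -1.78 for PLAT. Around SERPINE2, 1 of 6 rose and 1 fell, with a median of -0.08, against 1.34 for SERPINE2. Around SERPINB6, 6 of 20 rose and 3 fell, with a median of 0.02, against -0.42 for SERPINB6. Among those near it, the clade B genes SERPINB1 and SERPINB9 stood at -0.50 and -0.12, and NQO2 at 0.44. PLAT and SERPINE2 thus stood well apart from the median of their surroundings.

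Around PLAUR, in contrast, 16 of 30 neighbours rose and 0 fell, with a median log2 fold change of 0.52, and within 5 Mb 127 of 180 rose and 5 fell, with a median of 0.55. The value of PLAUR itself was 0.97. Around SERPINB2, 6 of 8 neighbours fell and 1 rose, with a median of -0.86, and within 5 Mb 18 of 22 fell and 2 rose, with a median of -0.91. The windows of SERPINB2 and SERPINB8 share their genes, including PHLPP1 at -1.33, VPS4B at -1.05, KDSR at -1.03 and BCL2 at -0.95 (log2 fold change, MDA231-LN minus parental). SERPINB2 and SERPINB7 rose within a stretch where other genes fell, and the -0.31 of SERPINB8 was smaller in size than the median of its window. DNA copy number was not measured, and the part of a regional shift in the values of PLAUR and SERPINB8 was not tested.

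**Figure D4:**
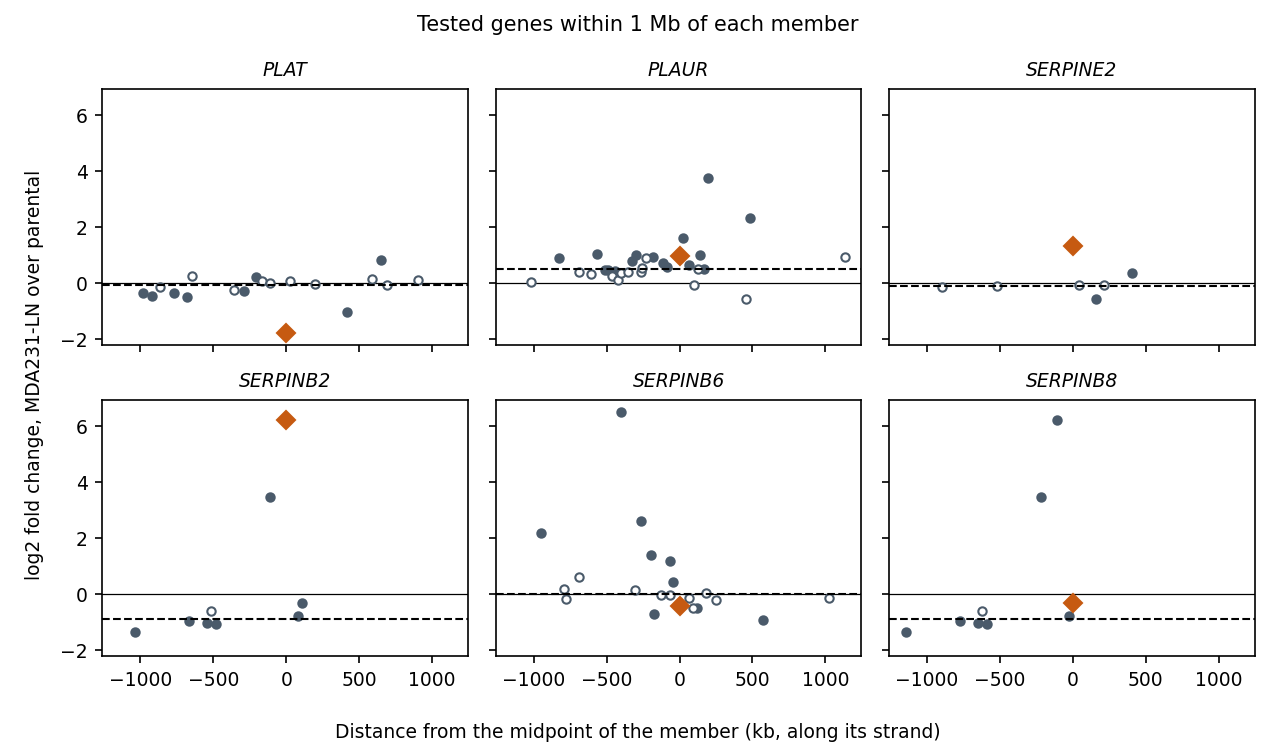
Log2 fold change, MDA231-LN over parental, of tested genes within 1 Mb of each tested gene of the group, by distance between midpoints in kilobases; filled points passed the test, open points did not, the orange diamond is the gene itself and the dashed line is the median of the neighbours. Neighbours of PLAUR have a median of 0.52 and those of SERPINB2 and SERPINB8 a median of -0.86, while those of PLAT and SERPINE2 have medians of -0.04 and -0.08.

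The genes of similar level whose centred log2 CPM over the 6 libraries lay closest to each member are given as a description, by Euclidean distance. With 6 libraries in 2 groups, closeness mostly means a like difference between the lines. Nearest to PLAT were SLC44A2 (0.21) and F2RL1 (0.22), and nearest to PLAUR were SHANK3 (0.06) and SYAP1 (0.11). Nearest to SERPINE2 were CEP170B (0.07) and HS6ST1 (0.11), and nearest to SERPINB2 were SLC30A8 (0.24) and CSMD1 (0.43). Nearest to SERPINB6 were INPP5F (0.05) and STAT3 (0.06), and nearest to SERPINB8 were ORC4 (0.09) and SPTLC2 (0.09). F2RL1 was the single gene of the 6 lists among these.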

How the data were processed

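Bulk RNA-seq counts of 3 MDA231-LN and 3 parental libraries were analysed. The authors deposited raw fragment counts. Per the file headers, featureCounts 2.0.1 counted whole gene bodies of the Ensembl 105 annotation, introns included, without strand, and left out fragments overlapping several genes or mapping to several places. The submitters' processing notes name STAR (version not given in the sources used here), GRCh38 and DESeq2. The table's gene length column, deposited by the authors, was not used.

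Symbols matched 61369 of 61541 genes. Counts were scaled by TMM and filtered with filterByExpr (14176 genes kept). They were tested, MDA231-LN minus parental, with the edgeR 4.0.16 quasi-likelihood test (R 4.3.3) and Benjamini-Hochberg adjustment. The same test was also run on counts simulated from the fit to these data, in which far fewer genes changed than here. The threshold was an adjusted p of 0.05. The SE is the log2 fold change divided by the root of F. CPM use TMM-scaled library sizes. Levels per kilobase use GENCODE 29 exonic bases outside other genes. Floors of 3 counts and exact 95% intervals cover counting error only, since reads carry no molecular identifiers. The genes and lists were chosen with earlier results of these data known; besides the 7 genes, up to 4 of each list with the smallest adjusted p among those changed at least 2-fold are named (otherwise up to 2), and 2 genes of like profile. Alternatives were other scalings, filters, DESeq2 1.42.0, limma-voom (limma 3.58.1), glmTreat (a test against a 1.5-fold change), a replicate block and leaving out each library. Same-numbered libraries did not deviate together (correlations -0.00394, 0.00241 and -0.0526), so numbers were not taken as pairs. Results for some genes that this rule names are not reported here.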

Additional observations from a re-analysis of the deposited data

How the results depend on the processing

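PLAT, PLAUR and SERPINE2 kept their direction and passed the test under every alternative run. SERPINB2 did so too, but was dropped where genes with over 50% of exonic bases inside other genes were left out. With 2 parental counts, SERPINB2 passed the filter only through MDA231-LN, so its calls are given as a description. SERPINB8 did not pass with upper-quartile scaling (-0.20), at an adjusted p under 0.01 (-0.31) or with glmTreat against 1.5-fold (-0.31), nor did SERPINB6 with glmTreat (-0.42); glmTreat asks for a larger change, and for the scaling the cause was not tested. Leaving out each library in turn gave -0.37 to -0.21 for SERPINB8, where the call was lost without the third MDA231-LN and without the third parental library, and 2 to 3 of the 7 genes fell. With glmTreat 1935 genes rose and 1534 fell over all genes, and 1 of the 7 genes fell; 1 gene of the plasminogen activation list fell, 2 of the fibrinolysis brakes fell, 1 uptake partner rose and 5 fell, and 0 clade B serpins fell. Upper-quartile scaling gave 5 rising genes of plasminogen activation, and raised the share of higher calls to 60.0%, against 50.3%. Leaving out the overlapped genes, an alternative chosen after seeing the data, left 1 rising clade B serpin. A replicate block gave 8591 called genes against 8904, 3 of the 7 rising and 3 falling, and changed no other call; the numbers do not pair the samples, and 0 MDA231-LN libraries correlated best with their own number. The log2 ratio of PLAT to SERPINE2 counts lay between -3.16 and -3.03. Of 254 values of named list genes 248 kept their call, 6 no longer passed and 0 reversed. PLG and most clade B genes of chromosome 18 had too few counts to be tested, and the part of sequencing depth in this was not tested. Overlap limits PLAU and SERPINB3.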
